A study of Homo sapiens with 8 samples.

Results

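The genes of G2 and mitosis were examined in the RNA sequencing of side population (SP) and non-side population (NSP) cells, both sorted from the human bladder cancer cell line J82. The 54 genes were taken by name, FOXM1 among them, from the 57820 genes of the count table, after its Ensembl identifiers were matched to current gene symbols without their version numbers. All 54 were found and all 54 had counts. Living cells were stained with the DNA dye Hoechst and sorted by flow cytometry into those with a low dye signal, the SP cells, and the remaining J82 cells, the NSP cells. No treatment or change of genotype was given for either group. There were 4 SP and 4 NSP libraries, with the replicate numbers 1 to 4 in each group, and the labels do not say whether the numbers stand for separate cultures or sorts, so that p-values measure the spread between these libraries, which may be technical.

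These genes carry a cell from the end of DNA replication to division. Cyclin B binds CDK1 and starts mitosis, the Aurora and Polo kinases build the spindle and test how chromosomes are attached to it, and the anaphase-promoting complex then marks cyclin B and securin for destruction. Most of the genes are transcribed late in the cell cycle, through the transcription factors FOXM1 and B-MYB, the MuvB complex at a promoter element called CHR, and NF-Y at CCAAT boxes. In a cell line their mRNA follows the share of cells that are in G2 and mitosis. Hoechst binds DNA, so the dye signal of a cell depends both on how fast it exports the dye and on how much DNA it holds, and in these groups these cannot be told apart. In bulk libraries, fewer cells in G2 and mitosis and less mRNA in each such cell also cannot be told apart.

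The promoters show the shared elements. Sequences of 300 bases around the start of the gene, from 250 before it to 50 after it, were found for 44 of the 54 genes in the RefSeq promoter table of GRCh38.p14. The letters TTTGAA, the core of the CHR, were searched on both strands, where the other strand reads TTCAAA, and so was CCAAT, whose reverse complement is ATTGG. The first of these was in 32 of the 44 windows (72.7%) and in 18.2% of the 27305 genes of that table. The second was also in 32 of the 44 (72.7%) and in 39.7% of all genes. Both were in 26 (59.1%), against 7.26% of all genes. Among the 6457 genes that were tested between SP and NSP cells and have a window, the shares were 12.6% for TTTGAA, 43% for CCAAT and 5.2% for both. A match describes the letters and does not show that a factor binds. The sequences before the start of 6 genes are shown as examples of how the elements are arranged, with TOP2A, which was lower in SP cells, and CCNB2, whose log2 fold change was 0.01, among them. They read 5′ to 3′ on the strand of the gene, from RefSeq on GRCh38.p14, with each TTTGAA and CCAAT or its reverse complement in capitals.
TOP2A (chr17:40417897-40418096, minus strand): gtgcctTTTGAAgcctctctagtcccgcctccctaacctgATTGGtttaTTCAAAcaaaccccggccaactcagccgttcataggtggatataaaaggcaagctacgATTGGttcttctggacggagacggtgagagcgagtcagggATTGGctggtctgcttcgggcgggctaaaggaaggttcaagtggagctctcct
PLK1 (chr16:23678789-23678888, plus strand): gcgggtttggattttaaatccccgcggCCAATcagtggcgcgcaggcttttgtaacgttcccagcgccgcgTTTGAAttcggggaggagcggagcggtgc
MKI67 (chr10:128126424-128126523, minus strand): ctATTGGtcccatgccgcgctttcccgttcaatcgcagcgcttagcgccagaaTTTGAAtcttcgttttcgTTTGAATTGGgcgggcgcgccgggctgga
ANLN (chr7:36389762-36389861, plus strand): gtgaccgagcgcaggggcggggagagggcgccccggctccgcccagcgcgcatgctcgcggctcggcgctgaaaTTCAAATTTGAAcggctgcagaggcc
CCNB2 (chr15:59105046-59105145, plus strand): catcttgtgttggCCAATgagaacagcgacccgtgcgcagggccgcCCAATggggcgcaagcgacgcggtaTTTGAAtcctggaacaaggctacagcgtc
CCNB1 (chr5:69167050-69167149, plus strand): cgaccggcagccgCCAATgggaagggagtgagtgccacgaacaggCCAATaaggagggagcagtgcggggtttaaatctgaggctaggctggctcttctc
TOP2A, shown over 200 bases where the other genes are shown over 100, holds 2 TTTGAA and 3 CCAAT matches in that longer stretch. In MKI67 a TTTGAA and an ATTGG share letters, and they form 1 run of capitals. ANLN has 2 TTTGAA matches that abut on opposite strands and no CCAAT in the 100 bases shown, and CCNB1 has 2 CCAAT matches and no TTTGAA. The 21 tested genes with TTTGAA in their window had a median log2 fold change of -0.38 and the 7 without it one of -0.39, with no test of the difference between them.

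Total counts ran from 1431823 to 1697218 in the SP libraries and from 1489033 to 2073526 in the NSP libraries. Counts are given as CPM, the count divided by the library size after TMM normalization and scaled alike in every library, and log2 fold changes are SP over NSP, so a negative value is a lower level in SP cells. A gene was called when edgeR's quasi-likelihood test gave it an adjusted p under 0.05 and its fold change over 1.3. Of the 54 genes, 36 had enough counts for the test, with 74 to 1648 counts over the 8 libraries (median 360), and 18 did not, with 13 to 93. Of 18 urothelial and epithelial markers 15 had counts, with a summed level of 3433 to 4787 CPM in SP and 4680 to 6415 CPM in NSP libraries. KRT8 and KRT18, keratins of simple epithelia and of carcinoma lines, had 47783 and 5472 counts over the 8 libraries, while UPK3A, KRT20 and TP63, markers of urothelial layers, were at 0. Of the 5 that were tested, 4 had a log2 fold change below 0 and 1 was called, KRT7, another keratin of simple epithelia, which was lower in SP cells (-1.35, adjusted p = 0.00342). Of 10 leukocyte markers 5 had counts and PTPRC, CD3D, CD3E, MS4A1 and NKG7 were at 0, with a summed level of 43.3 to 98.0 CPM in SP and 20.4 to 58.8 CPM in NSP libraries. Of 9 fibroblast and endothelial markers 8 had counts and DCN was at 0, with 102 to 182 CPM in SP and 21.8 to 61.7 CPM in NSP libraries, and COL1A2 (log2 fold change 2.09, adjusted p = 0.0085) and PDGFRB (1.42, adjusted p = 0.0164) were higher in SP cells. ABCB1, a transporter that exports Hoechst, was higher in SP cells (log2 fold change 2.96, adjusted p = 0.000744), and ABCG2, another, had 14 counts over the 8 libraries. The part of these genes in the differences below was not tested.

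One library stood apart for these genes. SP replicate 3 was the highest of the 4 SP libraries for 33 of the 36 tested genes, and for 26.0% of all 9309 genes tested. NSP replicate 3 was the highest NSP library for 23 of the 36, and for 28.0% of all genes tested. The summed level of the 54 genes was 966, 1195, 2158 and 943 CPM in SP replicates 1 to 4, and 1557, 1771, 2230 and 1735 CPM in NSP replicates 1 to 4. SP replicate 3 thus lay near NSP replicate 3 and above the other 3 NSP libraries, and the other 3 SP libraries lay below every NSP library. Results are therefore given with and without SP replicate 3, and with a replicate block, a term for the replicate number in the edgeR model. Each library was left out in turn, but SP replicate 3 was set apart on the values of these same genes. Leaving it out lowers the SP mean of the 33 genes in which it was highest. Calls and p-values without it, here and below, are therefore descriptive.

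A limit concerns the strand. The sources used here do not give the strand setting of the counting. Over the whole table, 595 long noncoding RNAs (lncRNAs) faced a protein-coding gene on the opposite strand, with at least 50% of their exon length inside its exons and at least 100 counts in the pair. The lncRNA held more counts per kb in 525 of them (88.2%). GAPDH had 13292 counts over the 8 libraries, and ENSG00000269968, a lncRNA across it, had 464412. Whether the table counted reads from the strand of a gene or from the strand opposite to it was not settled, so the counts of every gene named here may be those of the opposite strand. This holds also for genes that face no annotated exon there, whose counts would then be stray reads. The library totals given above are also far below the raw reads per sample that the paper reports, and the reason was not tested. The values below are those the table assigns to each gene. The genes on the other strand are given after the results.

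Of the 36 tested genes, 2 were lower in SP cells and 0 were higher. These were UBE2C and TOP2A. Over all 9309 genes tested, 2.03% were called lower and 1.63% higher. At an unadjusted p under 0.05 the counts were 9 lower and 0 higher, against 8.27% and 8.13% of all genes tested. DESeq2, which filters low counts in another way, tested 48 of the 54 genes. It called 2 lower and 0 higher, against 2.05% and 1.28% of all genes it tested. Limma voom with sample quality weights called 4 of the 36 lower (PLK1, AURKB, UBE2C and TOP2A) and 0 higher, against 2.30% and 1.90%. The median log2 fold change of the 36 genes was -0.39, against 0.01 over all genes tested, with a range from -1.25 in TOP2A to 0.24 in BIRC5. The value was below 0 for 29 of the 36 genes, and for 48.2% of all genes tested.

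With the replicate block, 15 of the 36 genes were lower in SP cells and 0 were higher, against 7.00% and 5.89% of all genes tested. The 15 were PLK1, AURKB, UBE2C, CENPF, TPX2, NUSAP1, TACC3, ANLN, SMC4, NCAPD2, TOP2A, MKI67, HMGB2, TMPO and FOXM1. The test shares variance estimates across genes, so a p-value with the block does not rest on the spread of that gene alone. For AURKB the differences between same-numbered libraries were -2.10, -1.41, 0.47 and -1.50, while its standard error with the block was 0.24. Small p-values with the block are to be read with this limit. Without SP replicate 3 and without a block, 12 genes were lower and 0 higher, against 1.70% and 1.73% of all genes tested, and the median was -0.79. All 12 were among the 15, and CENPF, TPX2 and TACC3 were the others. A fit with the block and without both libraries of replicate number 3 was added once the data had been seen. Of the 33 genes it tested, 18 were lower and 0 higher, against 6.81% and 6.45% of all genes tested. CDC20, RANGAP1 and KIF2C were the additions. Without SP replicate 2, 0 of the G2 and mitosis genes were called, against 110 lower and 91 higher of all 9840 genes then tested.

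**Figure D1:**
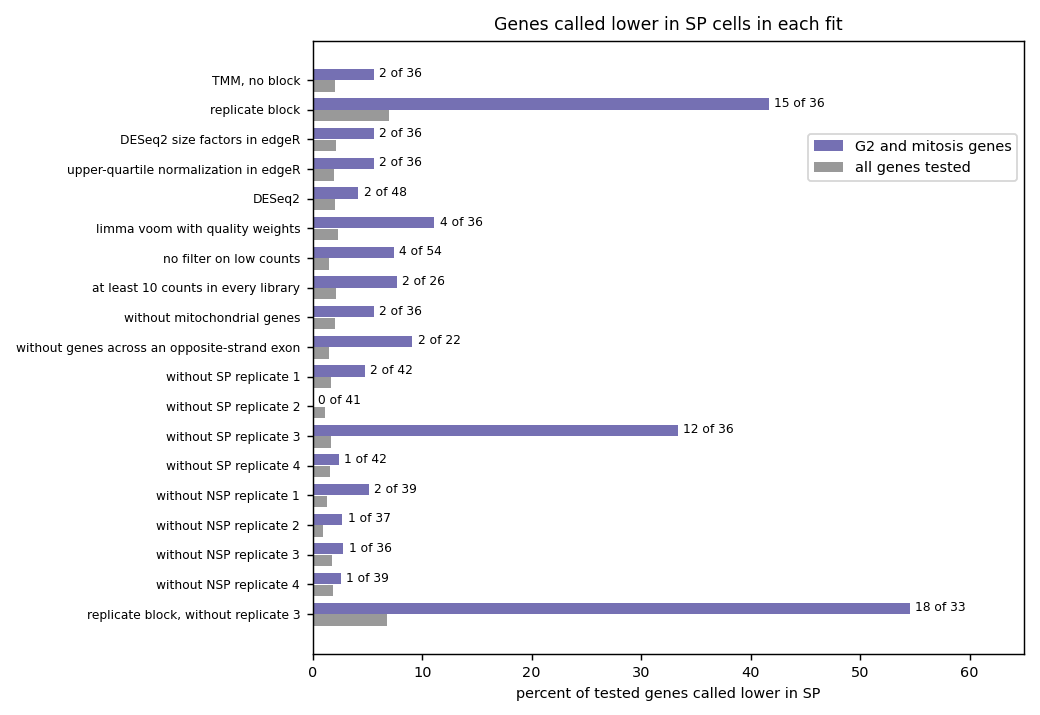
Percent of tested genes called lower in SP cells in each fit, for the G2 and mitosis genes (purple, with the number called of the number tested) and for all genes tested (grey). The 3 long purple bars are the fits with the replicate block (15 genes), without SP replicate 3 (12 genes) and with the block and without both libraries numbered 3 (18 genes).

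**Figure D2:**
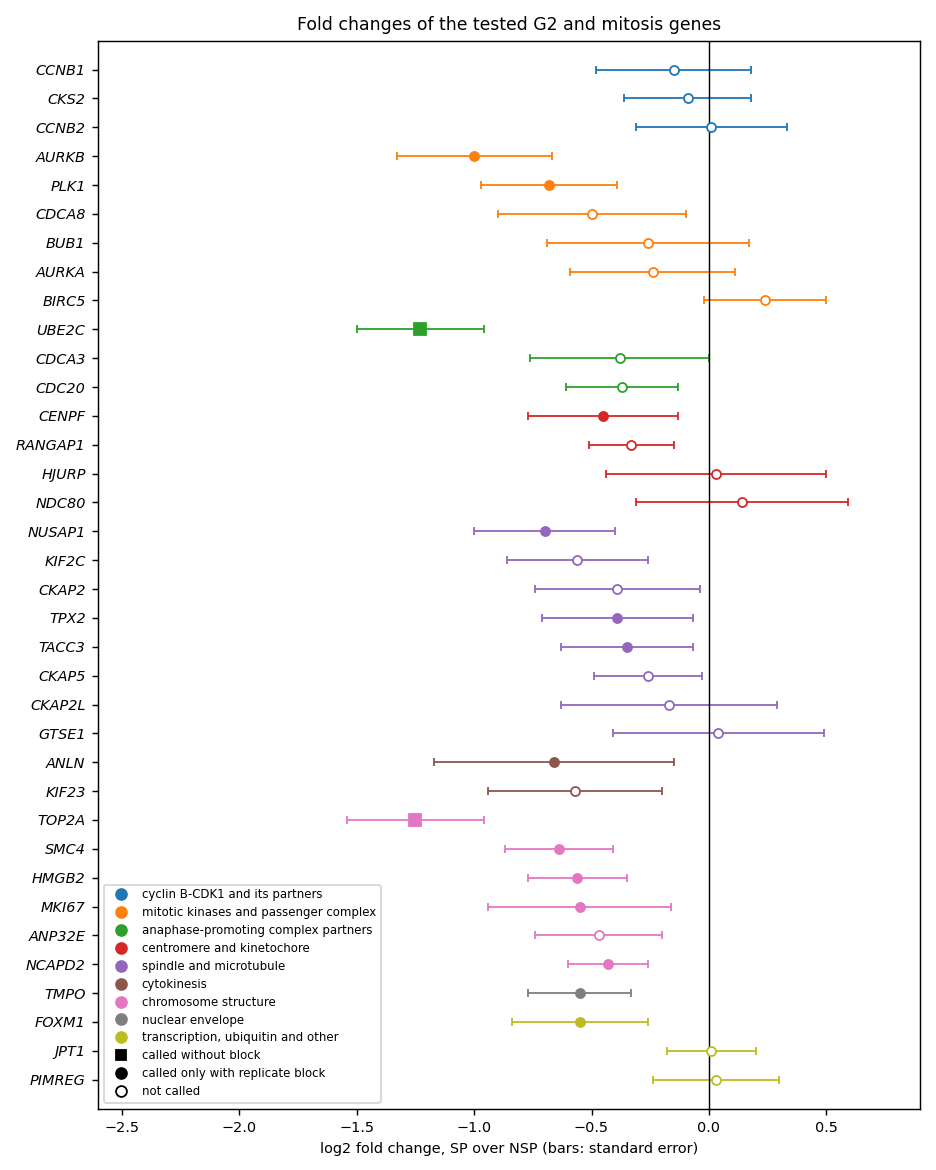
Log2 fold change of SP over NSP cells with its standard error for the 36 tested genes, in the fit without a block, coloured by role. Squares mark UBE2C and TOP2A, called in that fit, filled circles the 13 further genes called with the replicate block, and open circles the genes called in neither.

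UBE2C encodes the ubiquitin-conjugating enzyme that works with the anaphase-promoting complex. It had 34.6, 16.1, 48.7 and 19.1 CPM in SP replicates 1 to 4 and 75.5, 69.6, 74.0 and 62.2 CPM in NSP replicates 1 to 4. The counts behind them were 24 to 90 in SP and 90 to 142 in NSP libraries. Every SP library was below every NSP library. Means of 29.6 ± 15.1 CPM for SP and 70.3 ± 5.96 CPM for NSP (SD, n = 4 each) gave a log2 fold change of -1.23 (standard error 0.27, adjusted p = 0.0187, edgeR) and an exact two-sided permutation p of 0.0286, the smallest that 4 libraries against 4 can give. With the block the log2 fold change was -1.29 (adjusted p = 5.84e-09). UBE2C was not called without SP replicate 2 (-1.02, adjusted p = 0.0509) or without NSP replicate 2 (-1.24, adjusted p = 0.0531). The gene occupies bases 44441215 to 44445596 of chromosome 20 (GRCh37, plus strand). Its exons face no exon of another gene of the count table on the opposite strand, which does not settle the strand of its counts. UBE2C also had the highest level per length of the 36 genes, 38.9 CPM per kb of exon over the 8 libraries. Exon lengths are from a newer gencode release than the one used for counting.

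Its companions at the anaphase-promoting complex were not called. CDC20, which activates the complex and is held by the spindle checkpoint, had 36.8 to 88.8 CPM in SP and 60.1 to 87.4 CPM in NSP libraries, and the groups overlapped (log2 fold change -0.37, standard error 0.24, adjusted p = 0.495). CDCA3, a partner of a ubiquitin ligase for mitotic entry, had a log2 fold change of -0.38 (standard error 0.38, adjusted p = 0.683). With the block neither passed either.

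All 6 tested genes of chromosome structure had log2 fold changes below 0, against 48.2% of all genes tested. TOP2A, the topoisomerase that untangles sister chromatids, had 18.0, 11.4, 30.3 and 11.8 CPM in SP replicates 1 to 4 and 35.1, 35.1, 49.7 and 56.0 CPM in NSP replicates 1 to 4. Every SP library was below every NSP library, with SP replicate 3 nearest to them. Means of 17.9 ± 8.83 CPM for SP and 44 ± 10.6 CPM for NSP (SD, n = 4 each) gave a log2 fold change of -1.25 (standard error 0.29, adjusted p = 0.0238, edgeR) and an exact two-sided permutation p of 0.0286. With the block it was -1.30 (adjusted p = 5.40e-07). The call of TOP2A was lost without SP replicate 2 (-1.09, adjusted p = 0.0764), SP replicate 4 (-1.11, adjusted p = 0.0638), NSP replicate 3 (-1.19, adjusted p = 0.0567) or NSP replicate 4 (-1.13, adjusted p = 0.0593). It occupies bases 38544777 to 38574148 of chromosome 17 (GRCh37, minus strand). The exons of TOP2A too face no exon of another gene of the count table on the opposite strand, with the same limit.

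Of the 6 tested genes of chromosome structure, 1 was called without a block (TOP2A) and 5 with it. Over all genes tested, 2.03% were called lower without a block and 7.00% with it. The log2 fold changes of the 6 genes ran from -1.25 to -0.43. SMC4, the core ATPase subunit of condensin, had 31.7, 25.5, 48.7 and 30.2 CPM in SP and 45.7, 44.4, 73.3 and 51.9 CPM in NSP replicates 1 to 4. NCAPD2, a regulatory subunit of the condensin I complex, had 90.1, 92.5, 133 and 78.8 CPM in SP and 126, 129, 153 and 127 CPM in NSP replicates 1 to 4. For both genes the groups overlapped through SP replicate 3 alone, and SP was below NSP at each of the 4 replicate numbers. Their log2 fold changes were -0.64 (standard error 0.23, adjusted p = 0.156) for SMC4 and -0.43 (standard error 0.17, adjusted p = 0.214) for NCAPD2. With the block they were -0.67 (adjusted p = 0.00377) and -0.45 (adjusted p = 0.0182).

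MKI67, the surfactant of mitotic chromosomes known as the Ki-67 antigen, had 47.6, 72.4, 188 and 41.2 CPM in SP replicates 1 to 4. In NSP replicates 1 to 4 it had 77.7, 115, 207 and 121 CPM. SP replicate 3 was above 3 of the 4 NSP libraries, and the other 3 SP libraries were below all of them. The log2 fold change of MKI67 was -0.55 (standard error 0.39, adjusted p = 0.525), -0.70 with the block (adjusted p = 0.000306) and -1.26 without SP replicate 3 (adjusted p = 0.0312). HMGB2, a DNA-bending chromatin protein, had 33.9, 46.9, 70.9 and 48.6 CPM in SP and 67.6, 65.2, 82.3 and 83.0 CPM in NSP replicates 1 to 4. For HMGB2 the log2 fold change came to -0.56 (standard error 0.21, adjusted p = 0.175) and -0.59 with the block (adjusted p = 0.00552). ANP32E, a chaperone of the histone variant H2A.Z, had a log2 fold change of -0.47 (standard error 0.27, adjusted p = 0.417) and was not called with the block.

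The nuclear envelope genes were TMPO and LBR. TMPO encodes lamina-associated polypeptides and had 52.6, 86.5, 119 and 67.7 CPM in SP and 90.4, 126, 138 and 124 CPM in NSP replicates 1 to 4. Only SP replicate 3 reached the range of the NSP libraries. The log2 fold change of TMPO was -0.55 (standard error 0.22, adjusted p = 0.219) and -0.58 with the block (adjusted p = 0.00216). LBR, the lamin B receptor, was too low to test, with 0.67 to 5.41 CPM in SP and 2.47 to 7.61 CPM in NSP libraries.

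**Figure D3:**
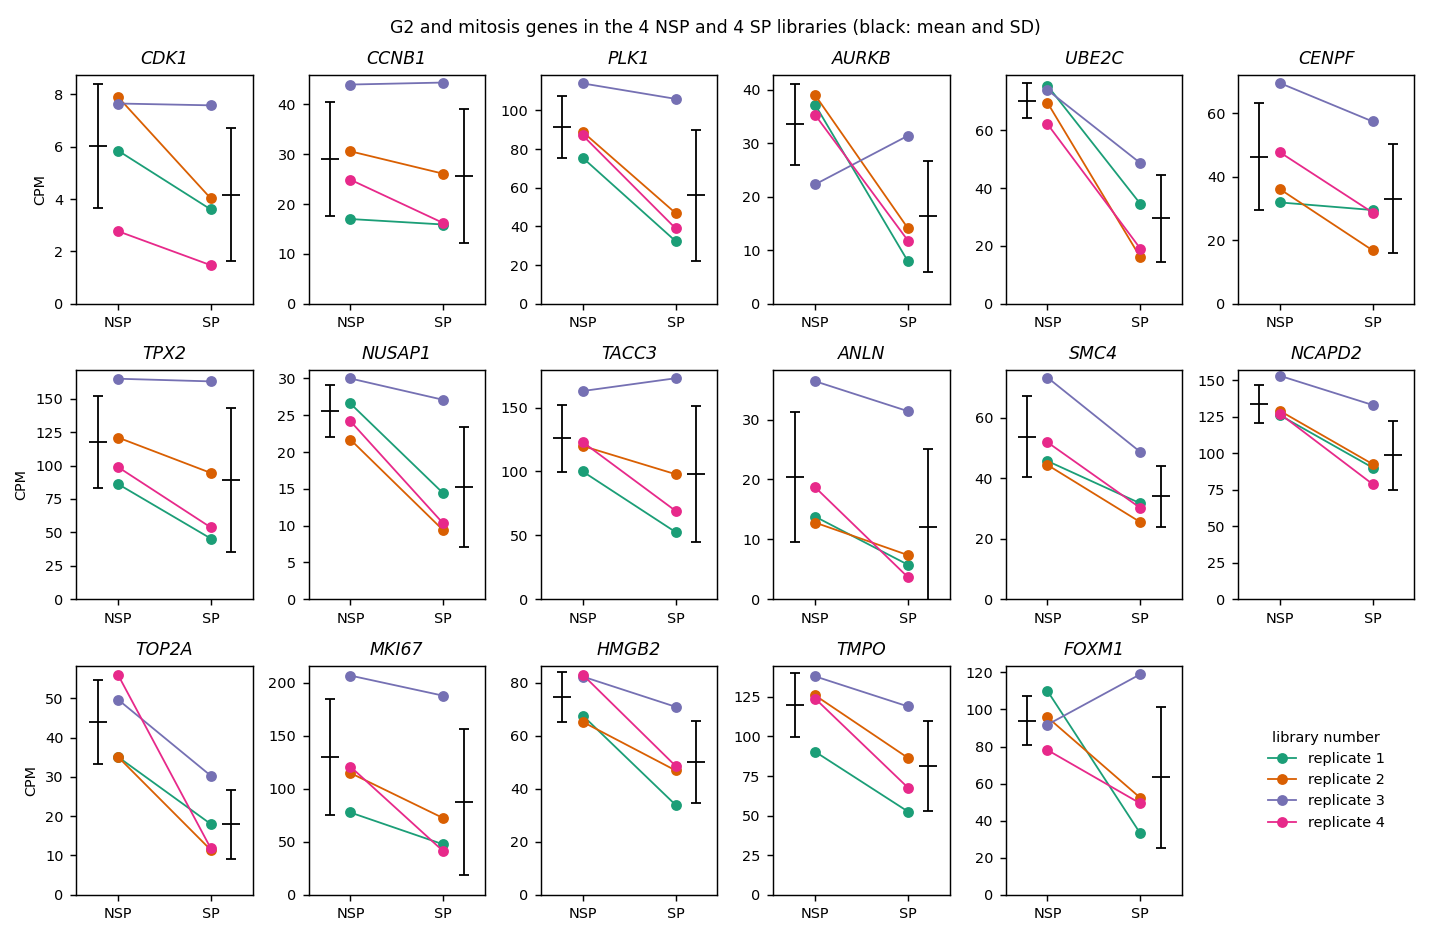
CPM of 17 G2 and mitosis genes in the 4 NSP and 4 SP libraries, on a linear axis from 0. Lines join libraries with the same replicate number, and black marks are the mean and SD (for ANLN in SP cells the SD reaches below 0 and its bar ends at the axis). Replicate 3 (purple) is the highest SP library in all 17 panels, while in UBE2C and TOP2A it still lies below every NSP library.

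Among the mitotic kinases, AURKB and PLK1 had the lowest log2 fold changes. PLK1, the Polo-like kinase of mitotic entry and spindle assembly, had 32.4, 46.9, 106 and 39.0 CPM in SP and 75.5, 88.9, 114 and 87.1 CPM in NSP replicates 1 to 4. SP replicate 3 was above 3 NSP libraries, and the other SP libraries were below all 4. PLK1 had a log2 fold change of -0.68 (standard error 0.29, adjusted p = 0.247), -0.79 with the block (adjusted p = 9.25e-05) and -1.20 without SP replicate 3 (adjusted p = 0.00501). AURKB, the kinase of the chromosomal passenger complex, had 7.93, 14.1, 31.4 and 11.8 CPM in SP and 37.2, 39.0, 22.3 and 35.3 CPM in NSP replicates 1 to 4. At replicate number 3 the SP library was the higher, and at the other 3 numbers the SP library was the lower, by 2.1, 1.41 and 1.5 on the log2(CPM + 1) scale. The log2 fold change of AURKB was -1.0 (standard error 0.33, adjusted p = 0.117), -1.04 with the block (adjusted p = 0.000499) and -1.57 without SP replicate 3 (adjusted p = 0.00845).

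CDCA8 and BIRC5, subunits of the passenger complex among the 54 genes, were not called. CDCA8, the borealin subunit, had a log2 fold change of -0.50 (standard error 0.40, adjusted p = 0.588). BIRC5, the survivin subunit, had the highest value of all 36 genes, 0.24 (standard error 0.26, adjusted p = 0.716), with 20.2 to 45.5 CPM in SP and 18.0 to 30.1 CPM in NSP libraries. AURKA, the kinase of the spindle poles, had -0.24 and the checkpoint kinase BUB1 -0.26, and none of these 4 genes was called in either fit. INCENP, the scaffold of the passenger complex, is not among the 54 genes and was added after its values were seen. INCENP had a log2 fold change of -0.71 (standard error 0.26, adjusted p = 0.175) and was called with the block (-0.73, adjusted p = 8.53e-05) and without SP replicate 3 (-1.03, adjusted p = 0.0359). The checkpoint kinase TTK and the centrosome kinase NEK2 were too low to test, with 31 and 46 counts over the 8 libraries.

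Of cyclin B and its partners, 3 of 6 genes were tested and 0 were called in either fit, with a median log2 fold change of -0.09. CCNB1, cyclin B1, had 15.9, 26.1, 44.4 and 16.2 CPM in SP and 17.0, 30.6, 44 and 24.9 CPM in NSP replicates 1 to 4. The groups overlapped over most of their range, with a log2 fold change of -0.15 (standard error 0.33, adjusted p = 0.876) and -0.20 with the block (adjusted p = 0.616). The sign of CCNB1 turned without SP replicate 1 (0.02), SP replicate 4 (0.01) or NSP replicate 3 (0.11). CCNB2, cyclin B2, had a log2 fold change of 0.01 (standard error 0.32) and CKS2, a small subunit of the CDK1 complex, -0.09 (standard error 0.27). CDK1 itself was too low to test, with 3.60, 4.02, 7.58 and 1.47 CPM in SP and 5.85, 7.90, 7.65 and 2.77 CPM in NSP replicates 1 to 4. Those levels rest on 2 to 14 counts in SP and 4 to 16 in NSP libraries, and SP was below NSP at each replicate number. CKS1B and CDC25C, the phosphatase that activates CDK1, were also too low to test.

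At the kinetochore, where microtubules attach, 4 of 7 genes were tested, with a median log2 fold change of -0.15. CENPF, a large protein of the outer kinetochore, had 29.5, 16.8, 57.4 and 28.7 CPM in SP and 31.9, 36.1, 69.5 and 47.7 CPM in NSP replicates 1 to 4. SP was the lower at each number, by 0.11 to 1.06 on the log2(CPM + 1) scale. CENPF had a log2 fold change of -0.45 (standard error 0.32, adjusted p = 0.523) and -0.51 with the block, where the adjusted p of 0.0499 only just passed the threshold. RANGAP1, which activates the Ran GTPase, had the most counts of the 54 genes (1648) and a log2 fold change of -0.33 (standard error 0.18, adjusted p = 0.401). HJURP, the chaperone of the centromeric histone CENPA, and NDC80, the microtubule-binding subunit, had 0.03 and 0.14 and were not called. NUF2, the partner of NDC80, was too low to test at 33 counts. After scaling, its 4 SP libraries (1.44 to 2.71 CPM) were below its 4 NSP libraries (2.77 to 3.19 CPM). Its raw counts overlapped, at 2 to 5 in SP and 4 to 6 in NSP libraries. Of the 18 untested genes 1, NUF2, had groups that did not overlap, against 4.97% with SP below over all genes tested. CENPA and the motor CENPE were also not tested.

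Spindle and microtubule genes made up the largest role group, with 8 of 14 tested and a median log2 fold change of -0.37. Of the 8, 0 were called without a block and 3 with it, against 2.03% and 7.00% of all genes called lower. TPX2, the activator of AURKA on spindle microtubules, had 45.4, 94.5, 163 and 53.7 CPM in SP and 86.2, 121, 165 and 98.9 CPM in NSP replicates 1 to 4. TACC3, which stabilises spindle fibres with CKAP5, had 52.6, 97.9, 173 and 69.2 CPM in SP and 100, 120, 163 and 123 CPM in NSP replicates 1 to 4. NUSAP1, a microtubule-bundling protein, had 14.4, 9.38, 27.1 and 10.3 CPM in SP and 26.6, 21.7, 30.0 and 24.2 CPM in NSP replicates 1 to 4. In all 3 genes SP replicate 3 lay within or above the range of the NSP libraries. Their log2 fold changes with the block were -0.49 for TPX2 (adjusted p = 0.0141), -0.45 for TACC3 (adjusted p = 0.0283) and -0.77 for NUSAP1 (adjusted p = 0.0141). Without a block they were -0.39, -0.35 and -0.70, with adjusted p-values of 0.6, 0.589 and 0.243. KIF2C, a kinesin that removes tubulin from microtubule ends, had -0.56 (standard error 0.30), CKAP2 -0.39, CKAP5 -0.26, CKAP2L -0.17 and GTSE1 0.04, and none of these 5 was called in either fit. KIF11, KIF20B, DLGAP5, HMMR, PSRC1 and GAS2L3 had too few counts for the test.

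Cytokinesis was represented by ANLN, KIF23 and ECT2. ANLN, the anillin scaffold of the contractile ring, had 5.76, 7.37, 31.4 and 3.68 CPM in SP and 13.8, 12.8, 36.4 and 18.7 CPM in NSP replicates 1 to 4. Replicate 3 was the highest library in both groups. The log2 fold change of ANLN was -0.66 (standard error 0.51, adjusted p = 0.574), -0.85 with the block (adjusted p = 0.0187) and -1.82 without SP replicate 3 (adjusted p = 0.0371). KIF23, a kinesin of the central spindle, had -0.57 (standard error 0.37, adjusted p = 0.482) and was not called with the block. ECT2, the exchange factor that activates RhoA at the division plane, was not tested, with 69 counts over the 8 libraries.

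FOXM1, the transcription factor of many of these genes, had 33.1, 52.3, 119 and 49.3 CPM in SP and 110, 95.8, 91.8 and 78.1 CPM in NSP replicates 1 to 4. SP replicate 3 was the highest of all 8 libraries, and the other 3 SP libraries were the lowest. The means were 63.5 ± 38 CPM and 94.0 ± 13.2 CPM (SD, n = 4 each), for a log2 fold change of -0.55 (standard error 0.29, adjusted p = 0.364, edgeR). It was -0.65 with the block (adjusted p = 0.00265) and -1.06 without SP replicate 3 (adjusted p = 0.0102). The matched differences of FOXM1 were -1.70, -0.86, 0.37 and -0.65 at the numbers 1 to 4. JPT1 and PIMREG had log2 fold changes of 0.01 and 0.03 (standard errors 0.19 and 0.27). JPT1 had 30.8 to 37.4 CPM in SP and 29.3 to 40.8 CPM in NSP libraries and the groups overlapped throughout. G2E3, a ubiquitin ligase, was not tested at 13 counts.

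Matched by replicate number, SP was below NSP at all 4 numbers for 14 of the 36 tested genes and above at all 4 for 0, against 15.1% and 14.9% of all genes tested. It was below at 3 numbers for 15 more. The median difference of the 36 genes, on the log2(CPM + 1) scale, was -0.49 at number 1, -0.47 at number 2, -0.01 at number 3 and -0.84 at number 4. The genes with a difference below 0 numbered 32, 31, 19 and 33 of 36. The differences at number 3 were thus split about evenly around 0, unlike those at the other 3 numbers. SP and NSP values did not overlap, with SP below, for 2 of the 36 genes, against 4.97% of all genes tested, and with SP above for 0, against 4.78%. Of the 18 untested genes, 13 had a lower mean CPM in SP cells and 5 a higher one, and 6 were below at all 4 numbers. CDCA2, the last of the 18, had 17 counts in all.

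**Figure D4:**
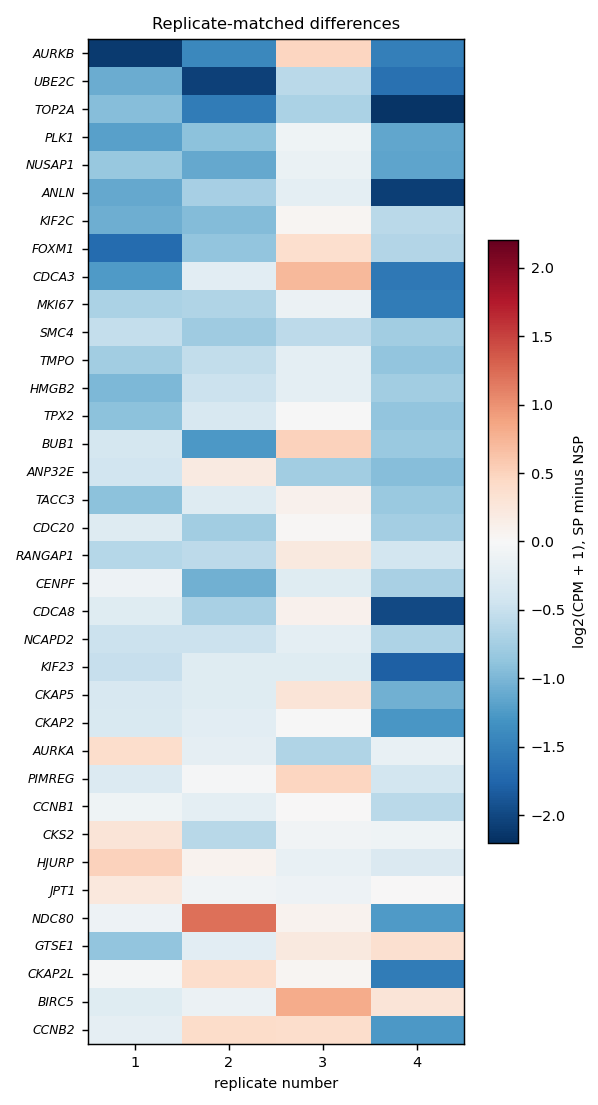
Difference in log2(CPM + 1) between the SP and the NSP library with the same replicate number, for the 36 tested genes (rows, ordered by their median) and the numbers 1 to 4 (columns). Blue is lower and red higher in SP cells, and column 3, with a median of -0.01, is pale while the columns 1, 2 and 4 are mostly blue.

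Other genes of G2 and mitosis, in 6 lists of 110 genes that were not among the 54, were compared in the same fit. Of the 71 tested, 0 were lower and 0 higher in SP cells by edgeR, against 2.03% and 1.63% of all genes tested. At an unadjusted p under 0.05, 6 were lower and 2 higher (CDKN1B and NFYB), against 8.27% and 8.13%. DESeq2 called 0 of the 88 it tested, against 2.05% lower and 1.28% higher. Limma voom called 2 of the 71 lower (MYBL2 and ESPL1) and 0 higher, against 2.30% and 1.90%. The numbers lower at the unadjusted p and by limma voom were thus near the shares over all genes. The names in brackets were taken after their values were seen. The median log2 fold change was -0.12. By list it was -0.40 for 13 further spindle and cytokinesis genes, -0.20 for 11 kinetochore and checkpoint genes, -0.13 for 15 condensin and cohesin genes, -0.08 for 11 subunits of the anaphase-promoting complex, -0.02 for 8 MuvB, MYB, E2F and NF-Y genes and 0.03 for 13 genes of the G2 entry switch. With the block 9 were lower (INCENP, CDKN1A, GADD45A, MYBL2, ESPL1, KIF18B, RACGAP1, FAM83D and CIT) and 1 higher (NFYB). The shares over all genes tested were 7.00% lower and 5.89% higher. Without SP replicate 3, 6 of the 73 then tested were lower and 0 higher, against 1.70% and 1.73% of all genes tested. MYBL2, which encodes B-MYB, had 202, 211, 382 and 183 CPM in SP and 349, 362, 404 and 386 CPM in NSP replicates 1 to 4, again with SP replicate 3 as the only SP library in the NSP range. Of 25 tested S phase genes, of 42 found, 1 was lower and 0 higher in SP cells (TYMS, thymidylate synthase, log2 fold change -0.56, adjusted p = 0.0431), and the median was -0.04. Without any 1 library TYMS was not called, and with the block 2 were lower (TYMS and MCM2). No test compared these lists with the 54 genes.

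Exons of 18 of the 54 genes lay across exons of a gene on the other strand on GRCh37, and 14 of these 18 were tested. Their median log2 fold change was -0.55, with 0 called without a block and 8 with it. The 22 tested genes without such an exon had a median of -0.35, with 2 called without a block and 7 with it. Over all genes tested, 2.03% were called lower without a block and 7.00% with it. The genes on the other strand numbered 20, of which 7 were lncRNAs and 13 protein-coding, and 12 of them had more CPM per kb of exon than the G2 or mitosis gene across from them. Of the 15 that were tested, 3 were lower in SP cells and 0 higher, against 2.03% and 1.63% of all genes tested. The log2 fold change was below 0 for 13 of them, against 48.2% of all genes tested, and the median was -0.58. With the block 9 were lower and 0 higher, against 7.00% and 5.89% of all genes tested.

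The values of these neighbours were often larger than those of the gene itself. ITFG2, a gene whose exons share 782 bases with those of FOXM1, had 765, 892, 1073 and 592 CPM in SP and 1306, 1379, 1744 and 1111 CPM in NSP replicates 1 to 4, with every SP library below every NSP library. It had 11.1 times the CPM per kb of FOXM1 and a log2 fold change of -0.74 (standard error 0.19, adjusted p = 0.0428), against -0.55 for FOXM1. KIF23-AS1, a lncRNA across KIF23, had 54.8, 33.5, 20.0 and 28.7 CPM in SP and 153, 137, 110 and 99.6 CPM in NSP replicates 1 to 4. Here SP replicate 3 was the lowest library, with a log2 fold change of -1.88 (standard error 0.25, adjusted p = 0.000839), against -0.57 for KIF23. ENSG00000225721, a lncRNA across KIF2C, had 43.2, 55.6, 92.6 and 40.5 CPM in SP and 91.5, 124, 164 and 94.0 CPM in NSP replicates 1 to 4, with a log2 fold change of -1.01 (standard error 0.25, adjusted p = 0.0366). TRIM59 across SMC4 and TMPO-AS1 across TMPO had 12317 and 5188 counts over the 8 libraries, where SMC4 had 579 and TMPO 1334. Their log2 fold changes were -0.78 and -0.67, not called without a block (adjusted p = 0.0639 and 0.148) and called with it (adjusted p = 1.86e-06 and 9.29e-06). The exon bases shared by a pair ran from 5 for NUF2 to 1553 for SMC4 with TRIM59, and were 231 for KIF23 and 175 for KIF2C. Reads from the shared bases cannot be told apart without the strand setting, and how much of each value belongs to which gene was not tested.

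**Figure D5:**
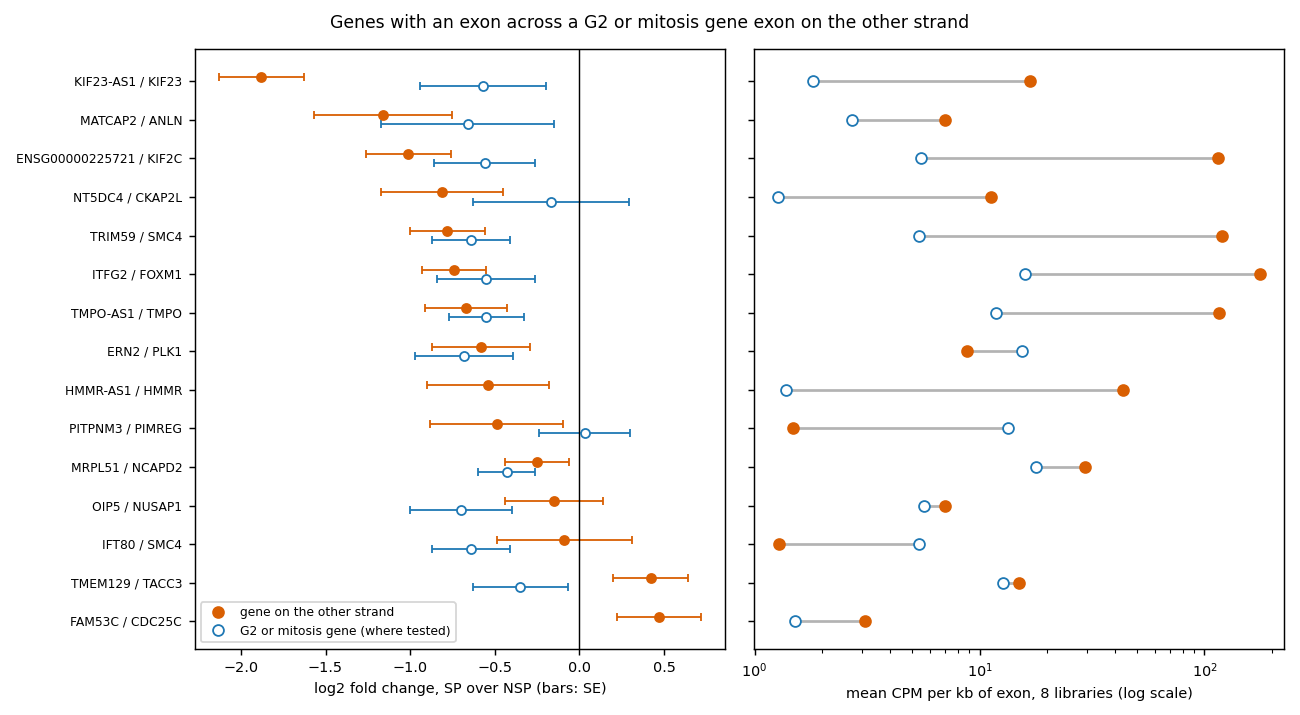
Left, log2 fold change of SP over NSP cells with its standard error for the 15 tested genes on the other strand (filled orange) and for the G2 or mitosis gene across from each (open blue, where tested). Right, their mean CPM per kb of exon over the 8 libraries on a log axis. Of the 15 filled points 13 lie left of 0, and ITFG2 lies at 11.1 times the level of FOXM1.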

How the data were processed

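RNA of sorted SP and NSP cells was sequenced by the authors as single-end reads of 50 bases from KAPA mRNA HyperPrep libraries, aligned to hg19 with STAR and counted on the genes of gencode 19 with featureCounts. The deposited values are raw counts per gene, without normalization. Whether the counting used strand, and how it treated reads matching several genes, is not given in the sources used here. Library totals were 1431823 to 2073526 counts, and few counts limit the precision of the lower genes. Symbols, GRCh37 positions and exons came from a newer gencode release lifted to GRCh37 and were joined by the unversioned identifier (55538 of 57820 genes, 96.1%). CPM per kb thus divides counts on gencode 19 genes by exon lengths of the newer release. Exons on the opposite strand were looked for only among genes of the count table.

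The test was edgeR's quasi-likelihood F test (version 4.0.16, R 4.3.3) after TMM scaling and filterByExpr (min.count 10, min.total.count 15), with no covariate. Its p-values were adjusted by Benjamini-Hochberg over all 9309 genes tested. Genes were called at an adjusted p under 0.05 and a fold change over 1.3. The standard error is the log2 fold change divided by the square root of F. For single genes, log2(CPM + 1) was permuted over all 70 arrangements of the libraries (exact, two-sided). Matched differences use the same scale. The edgeR step was tested on simulated counts.

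The deviations of same-numbered SP and NSP libraries from their group means correlated at 0.38, 0.203, 0.322 and 0.321 (numbers 1 to 4). Differently numbered libraries were not correlated in this way, so these values do not show that the numbers are pairs. The replicate block and the matched differences treat the libraries as pairs, while the test without a covariate and the permutations do not. The labels do not say what a number stands for. Libraries of one group differed by more than sampling noise (chi-square per degree of freedom 5.63 to 13.5), and each was counted as 1 sample. Alternatives were the replicate block, DESeq2 size factors in edgeR, upper-quartile normalization, DESeq2 1.42.0, limma voom 3.58.1 with sample quality weights, testing every gene with a count, asking for 10 counts in each library, omitting mitochondrial genes, omitting genes whose exons face an exon on the opposite strand, and omitting single libraries.

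The genes and lists were chosen with earlier results of these data known. Values in every library are given for genes called without or with the block and for FOXM1, CDK1, CCNB1, MKI67 and TOP2A; from the other lists the genes called without the block are named, and of the genes on the other strand the called ones and the 5 with the most counts. Any other gene with values in every library, and any gene of the other lists named for a call in another fit, was chosen after its values were seen.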

Additional observations from a re-analysis of the deposited data

Results flagged for a closer look

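Of 46 groups of 4 libraries looked at, 2 held a library far from the other 3, and chance gives about 2.3. The level of ANLN in SP replicate 3, 31.4 CPM, was the highest of its group, with a gap to the next library of 0.867 of the group's range. The level of NCAPD2 in NSP replicate 3, 153 CPM, was the highest of its group, with a gap of 0.878 of the range. Both libraries carry the replicate number 3.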

How the results depend on the processing

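The number of G2 and mitosis genes lower in SP cells, 2 in the fit without a block, was 15 with the replicate block, 4 with limma voom, 4 without a filter on low counts, 18 with the block and without both libraries numbered 3, and 0 to 12 with a single library left out. It was 0 without SP replicate 2, 1 without SP replicate 4 or NSP replicate 2, 3 or 4, and 12 without SP replicate 3, and stayed at 2 under the other alternatives. None was called higher in any fit. Their median log2 fold change ran from -0.79 (without SP replicate 3) to -0.24 (without SP replicate 4), against -0.39. Of the other G2 and mitosis genes, 0 were lower without a block, 9 with the block, 1 (ESPL1) with DESeq2 size factors, 2 with limma voom, 4 without a filter (MYBL2, FAM83D, ESPL1 and INCENP), 1 (ESPL1) without genes across an opposite-strand exon, and 0 to 6 with a library left out. With the block 1 was higher (NFYB). Over all genes tested, 197 of 9309 were lower with DESeq2 size factors and 62 of 4254 without genes across an opposite-strand exon. S phase genes lower numbered 2 with the block, and 0 with upper-quartile normalization, without a filter, without genes across an opposite-strand exon and without any single library, where 1 was lower. CCNB1 changed sign without SP replicate 1 (0.02), SP replicate 4 (0.01) and NSP replicate 3 (0.11), within a range of -0.57 to 0.11 with a library left out. For the single genes named, 227 values kept their direction and their side of the threshold, 27 passed it in addition, 6 no longer passed it and 3 changed sign. The block tests the difference within replicate numbers, and the cause of the other changes was not tested. Depth limits the 18 untested genes, with 13 to 93 counts over the 8 libraries.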
